A study of Danio rerio with 8 samples.

Results

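Primordial germ cells (PGCs) of wild type zebrafish were compared between the shield stage, early in gastrulation, and the bud stage, at its end. The comparison used 2 libraries per stage, 4 of the 8 libraries of the series. Genes entered it when their FPKM, fragments scaled by transcript length and by the mapped fragments of the library, was at least 1 in at least 2 of these 4 libraries. This held for 12486 of the 31200 gene symbols in the table, or 40.0%, and the other 18714 were not tested.

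The embryos were wild type of the Tuebingen and India strains, and the growth protocol also names the line Tg(kop:EGFP-nanos 3'UTR). Zygotes of both stages had received mRNA of GFP with the nanos1 3′ UTR, which is kept in PGCs and lost from other cells. After dissociation of the embryos the fluorescent cells were hand-picked, pooled by genotype and turned into SMART-seq2 libraries of polyadenylated RNA. The labels call the 2 libraries of a stage biological replicates but do not give the number of cells or embryos in a pool, and 1 protocol field speaks of oocytes. The other 4 libraries came from embryos homozygous for a pigu mutation and enter below only where the stage difference is compared between genotypes. Genes are named by the symbol of the deposited table, and coordinates are not used here.

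Zebrafish PGCs inherit germ plasm, a store of maternal RNA and protein that protects germ cell mRNAs such as nanos3, ddx4 and dnd1. Between shield and bud the cells migrate toward the future gonad, guided by the chemokine receptor Cxcr4b. The same hours cover the later part of the maternal-to-zygotic transition, in which mRNAs stored by the egg are removed and the embryo's own genes take over, while Nodal, BMP, FGF and Wnt signals lay out the germ layers around the PGCs.

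The libraries differed in quality, and shield replicate 1 stood apart. It held 8338 genes at FPKM of at least 1, against 12293 in shield replicate 2, 11460 in bud replicate 1 and 13007 in bud replicate 2. Mitochondrial entries took 58.5% of its total FPKM, against 22.95%, 30.5% and 17.8% in the other libraries in the same order. Of the tested genes, 28.1% were listed at 0 in it, against 2.57%, 7.04% and 1.39%. Pearson's r of log2(FPKM + 1) over the tested genes was 0.784 between the shield libraries and 0.890 between the bud libraries, while shield replicate 2 had r of 0.803 and 0.853 with the bud libraries. Total FPKM ran from 604100 to 855391. FPKM carry no read counts, so the depth is unknown and no counting interval is given.

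The markers of the labelled cell type were high in all 4 libraries. nanos3, a translational repressor needed for germ cell survival, was the most abundant nuclear gene at both stages. Its FPKM were 3014 and 9313 at shield and 3792 and 7247 at bud. The injected GFP mRNA and the transgene of the named line carry untranslated sequence of a nanos gene. Whether reads of these reporters counted toward nanos3 was not tested. dnd1, which shields germ cell mRNAs from microRNAs, stood at 1485 and 4585 at shield and at 1633 and 2866 at bud. ddx4, the Vasa helicase, stood at 319 and 889 and then at 556 and 629. The shield and bud libraries overlapped for all 8 germ cell markers. For each of the 8, shield replicate 1 was the lowest library and shield replicate 2 the highest. The remaining markers were tdrd7a and gra of the germ plasm, the RNA-binding factor dazl, the carbonic anhydrase gene ca15b and the receptor cxcr4b. Log2 differences of the 8 ran from −0.27 for dnd1 to 0.55 for dazl, with SE from 0.55 to 0.87 (limma adjusted p from 0.85 to 1.00). For cxcr4b the 4 FPKM were 284 and 655 at shield and 311 and 546 at bud.

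Markers of somatic cells were present at lower levels, and some moved with the stage. The summed FPKM of the 8 germ cell markers ran from 6778 to 24052. These sums include nanos3, toward which reads of the reporters may have counted. The 8 axial mesoderm markers summed to 219 and 518 at shield and to 31.2 and 37.4 at bud. The 6 endoderm markers summed to 66.8 and 197 at shield and to 19.8 and 6.38 at bud, with sox17, which defines that layer, listed at 0 in all 4 libraries. The endoderm sums were mostly cxcr4a, at 59.2 and 169 and then at 18.2 and 1.63, except in bud replicate 2. There gata5, at 3.64, was the larger part. For ventral and lateral mesoderm the sums of 7 markers were 196 and 264 at shield and 114 and 107 at bud. Most of the shield sums was eve1, at 184 and 212 and then at 50.4 and 27.9, while gata2a stood at 2.85 and 39.6 and then at 54.9 and 73.2. The shield sums of these 3 lists lay above their bud sums. The sums of the paraxial mesoderm (81.4 to 315), neural ectoderm (16.3 to 61.2), epidermis (264 to 735) and enveloping layer markers (22.2 to 69.0) overlapped between the stages. Those of the yolk syncytial layer were very low, at 1.38 and 0.93 at shield and 0.61 and 0.79 at bud. Their shield sums also lay above their bud sums. Most of the epidermis sums was bambia, at 237 and 662 and then at 272 and 348, while tp63, gata3, foxi1 and dlx3b each stood higher in both bud libraries than in both shield libraries. The libraries of bambia, tfap2a and tfap2c overlapped between the stages. Listed at 0 in all libraries were also mespaa, gata1a, egr2b and sox1a. In pooled cells, fewer cells of a type and less RNA per cell cannot be told apart, and the part of somatic cells in the differences below was not tested.

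**Figure D1:**
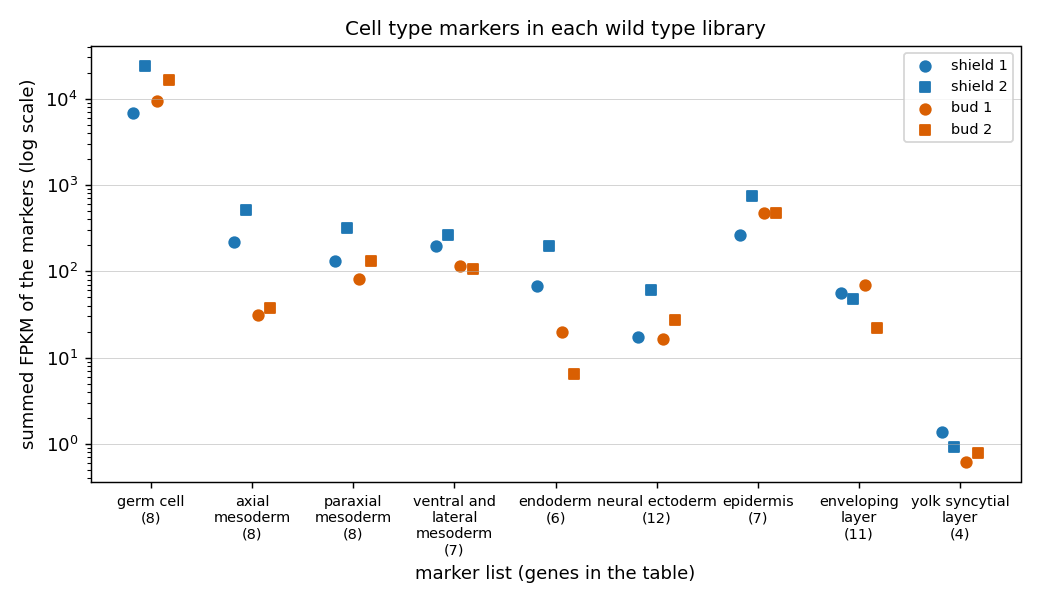
Summed FPKM of cell type markers (y axis, log scale) for 9 marker lists (x axis, with the number of genes in the table) in each of the 4 wild type libraries, shield in blue and bud in orange, replicate 1 as circles and replicate 2 as squares. The germ cell sums overlap between stages, while the axial mesoderm sums are 219 and 518 at shield against 31.2 and 37.4 at bud.

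limma called 0 of the 12486 genes (0% called) between bud and shield, and the smallest Benjamini-Hochberg adjusted p was 0.101, for the cyclin gene ccna1. At an unadjusted p under 0.05 stood 1155 genes (9.25%), of which 912 were higher at bud (7.3%) and 243 lower (1.95%). By chance 624.3 genes would be expected there. Both bud libraries lay above both shield libraries for 3837 genes, which is 30.7% of those tested. They lay below for 1313 genes, or 10.5%. Such genes are called separated, as higher or as lower. These shares are the background against which the gene lists below are read. The lean to the higher side depended on scaling. Quantile normalization gave shares of 23.2% and 21.4%, and scaling by the median of ratios gave 26.1% and 16.6%. The median log2 difference of all genes was 0.54 unscaled, 0.23 with the median of ratios and 0.01 with quantiles. Differences of lists are therefore given relative to that median. A gene that reached the filter only through 1 stage had to lie higher there, and 261 tested genes were listed at 0 in both shield libraries and 58 in both bud libraries. With 2 libraries against 2, an exact permutation test of any gene alone cannot go below a two-sided p of 0.333.

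**Figure D2:**
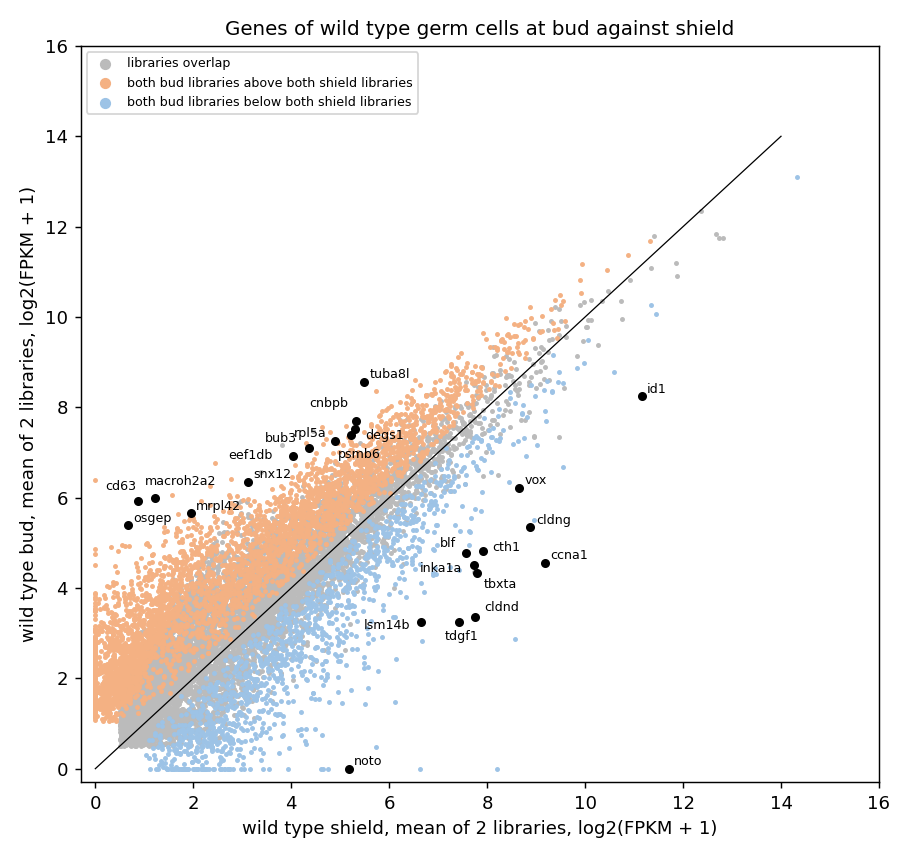
Mean log2(FPKM + 1) of the 2 shield libraries (x axis) against that of the 2 bud libraries (y axis) for the 12486 tested genes, with the line of equal values. Orange points are the 3837 genes whose bud libraries both lay above both shield libraries, blue points the 1313 below, grey points the overlapping genes, and black points the 24 named genes, none of which passed the test.

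The genes named next are the 12 on each side with the smallest unadjusted p among annotated genes whose libraries did not overlap and whose higher stage had a mean FPKM of at least 5. They did not pass the test, and their lack of overlap is set by that rule. On the lower side, several were factors stored in the egg. ccna1 codes for cyclin A1, a cyclin of oocytes and early embryos. Its FPKM were 549 and 609 at shield and 22.6 and 22.6 at bud. The gap between the stages was far wider than that between the replicates of either stage, and the log2 difference was −4.62 (SE 0.46, limma adjusted p = 0.101). In the 4 fits that left out 1 library, each with a single library at 1 stage, the log2 difference of ccna1 ran from −4.69 to −4.54. With all 4 libraries ccna1 passed with a pseudocount of 5 (limma adjusted p = 0.0169) and with FPKM of at least 1 required in all 4 libraries (0.0185). It also passed after quantile normalization (0.0054) and with library weights (0.0094). It did not pass with a pseudocount of 0.1 (limma adjusted p = 0.394) or with median-of-ratios or nuclear scaling. Nor did it pass without the intensity trend, with robust moderation or in the fit over all 8 libraries. Over all alternatives its adjusted p ran up to 0.781.

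A pair of claudin genes, which code for tight junction proteins, followed. cldnd stood at 230 and 199 FPKM at shield and at 10.8 and 7.91 at bud (log2 difference −4.39, SE 0.56, limma adjusted p = 0.192). cldng stood at 549 and 404 and then at 52.7 and 29.6 (−3.54, SE 0.51, adjusted p = 0.297). Both had bud values far under their shield values in each library. lsm14b, which codes for an RNA-binding protein of stored oocyte mRNAs, stood at 78.7 and 127 at shield and at 10.6 and 6.77 at bud. cth1, of the zinc finger family that binds AU-rich mRNAs, stood at 177 and 326 and then at 36.9 and 20.3. The log2 differences of lsm14b and cth1 were −3.41 and −3.08, with SE of 0.65 and 0.57 (limma adjusted p = 0.534 for both).

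The rest of this side were mostly genes of embryonic signalling and patterning. tdgf1 codes for the EGF-CFC co-receptor that Nodal ligands need. It stood at 128 and 227 FPKM at shield and at 5.16 and 13.7 at bud (log2 difference −4.17, SE 0.68, limma adjusted p = 0.371). id1, a target of BMP that blocks basic helix-loop-helix factors, was among the most abundant nuclear genes at shield. It stood at 2243 and 2320 there and at 366 and 248 at bud (−2.92, SE 0.48, adjusted p = 0.371). vox, a homeobox repressor of dorsal genes, stood at 309 and 525 and then at 73.3 and 73.9. The Brachyury gene tbxta, needed for the notochord and tail, stood at 118 and 408 and then at 16.1 and 22.6. noto, a homeobox gene of the notochord, stood at 33.0 and 37.2 at shield and was listed at 0 in both bud libraries. These last 2 are also markers of axial mesoderm, whose sums are given above. inka1a, whose product inhibits PAK kinases in mammals, stood at 112 and 399 and then at 19.5 and 24.6. For the zinc finger gene blf the FPKM were 117 and 300.0 at shield and 29.1 and 24.1 at bud. In vox, tbxta, inka1a and blf the shield replicates differed more than the bud replicates, with shield replicate 1 the lower.

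On the higher side stood genes of general cell functions. tuba8l, of the alpha tubulin family, stood at 39.2 and 49.4 FPKM at shield and at 454 and 314 at bud (log2 difference 3.07, SE 0.48, limma adjusted p = 0.371). The other 11 genes named on this side each had an adjusted p of 0.534. Protein synthesis was represented by 3 of them. eef1db, of the elongation factor 1 complex, stood at 15.2 and 15.6 at shield and at 107 and 137 at bud. rpl5a, whose protein binds the 5S RNA of the large ribosomal subunit, stood at 39.4 and 38.0 and then at 193 and 170.2. mrpl42, of the mitochondrial ribosome, stood at 1.84 and 4.23 and then at 52.4 and 46.3. In these 3 genes the replicates of a stage lay close together compared with the gap between the stages. psmb6, a catalytic subunit of the proteasome, stood at 37.0 and 21.9 at shield and at 185 and 122.6 at bud. bub3, of the spindle checkpoint, stood at 12.7 and 29.5 and then at 175 and 107.

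Membrane and lipid functions made up another group. degs1, which codes for the desaturase that completes ceramide, stood at 35.0 and 37.4 FPKM at shield and at 177 and 157 at bud. snx12, a sorting nexin of endosomes, stood at 5.23 and 11.04 and then at 88.3 and 73.2. cd63, a tetraspanin of late endosomes, was listed at 0 in shield replicate 1, stood at 2.31 in shield replicate 2, and reached 69.6 and 51.9 at bud. Nucleic acid and chromatin proteins were the remaining 3. cnbpb, a nucleic acid-binding zinc finger protein, stood at 30.8 and 49.5 and then at 204 and 209.5. macroh2a2, a histone H2A variant with a macro domain, was listed at 0 and stood at 4.47 at shield and at 51.7 and 76.9 at bud. osgep, of the complex that makes a modified base of tRNAs, was listed at 0 and stood at 1.50 at shield and at 49.8 and 33.4 at bud. The zeros of cd63, macroh2a2 and osgep were all in shield replicate 1, the library with most zeros.

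**Figure D3:**
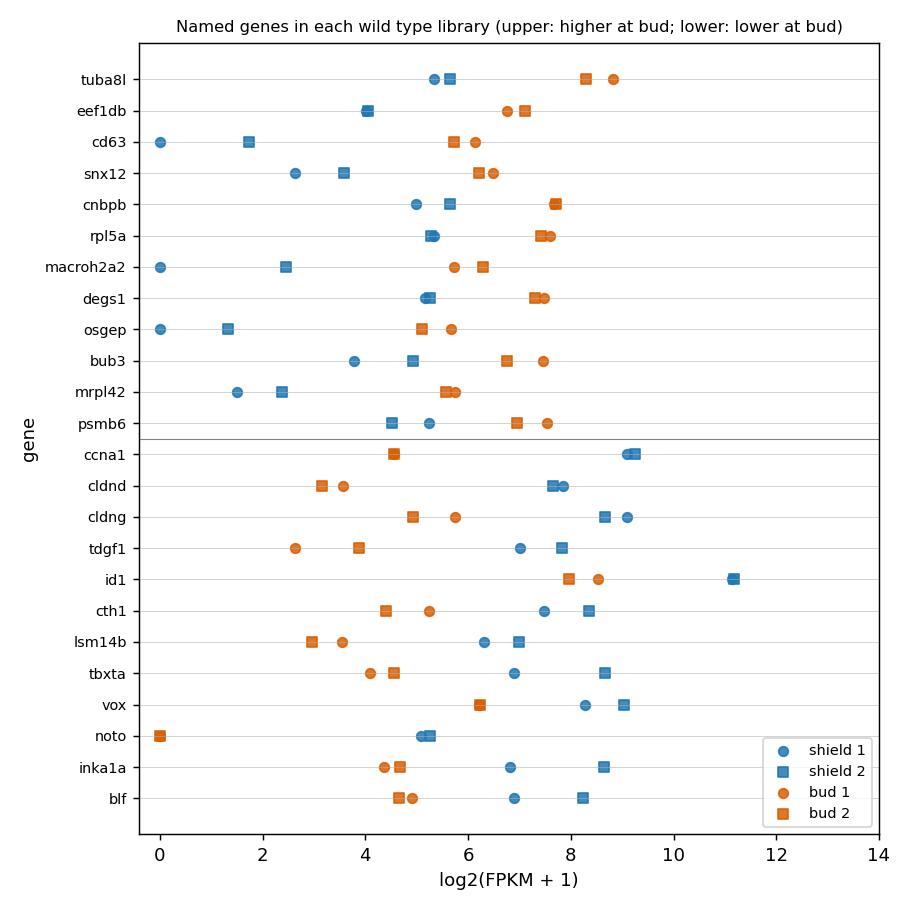
log2(FPKM + 1) (x axis) of the 24 named genes (y axis) in each wild type library, with shield in blue, bud in orange, circles for replicate 1 and squares for replicate 2. The 12 genes above the line were higher at bud and the 12 below it lower, and shield replicate 1 is listed at 0 for cd63, macroh2a2 and osgep.

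Within a library, the share that 1 gene takes of a pair of related genes does not depend on the library's scaling. The 10 pairs given here, most of them an egg type member and a more widely used relative, were chosen after their values were seen and are a description. How reads shared by such relatives were assigned is not given in the sources used here. ccna1 made up 75.6% and 63.4% of the summed FPKM of ccna1 and ccna2 at shield, and 5.64% and 6.30% at bud. ccna2, cyclin A2, stood at 177 and 352 at shield and at 378 and 337 at bud, so that its libraries overlapped. btg4, which recruits the deadenylase to maternal mRNAs, made up 98.2% and 82.2% of btg4 and btg1 at shield and 12.4% and 5.94% at bud. birc5b, a survivin gene of maternal supply, made up 76.4% and 65.4% beside birc5a at shield and 7.73% and 16.1% at bud. In both pairs the egg type member was lower and its relative higher in each bud library.

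Factors that bind mRNA showed the same order of shares. lsm14b took 87.8% and 81.0% beside lsm14ab at shield and 26.6% and 14.1% at bud. eif4e1b, an oocyte form of the cap-binding protein, took 83.3% and 72.8% beside eif4ea at shield and 41.5% and 33.8% at bud. Its own libraries overlapped (65.4 and 39.2, then 43.0 and 32.3), while eif4ea stood at 13.1 and 14.7 at shield and at 60.8 and 63.3 at bud. slbp2, an oocyte form of the protein that binds the stem-loop of histone mRNAs, took 16.1% and 15.8% beside slbp, then 0.66% and 1.44%. pabpc1l, the egg type poly(A)-binding protein, took 15.02% and 7.64% beside pabpc1a, then 3.22% and 2.62%. kpna7, an importin of oocytes, took 59.3% and 46.8% beside kpna2 and then 19.1% and 23.2%. cxcr4a took 17.3% and 20.5% beside cxcr4b and then 5.53% and 0.298%. cxcr4a is among the endoderm markers above. The shares of the B cyclins overlapped, with ccnb1 taking 63.0% and 54.3% beside ccnb2 at shield and 61.7% and 56.4% at bud. Both B cyclins stood lower at bud, ccnb1 at 909.5 and 917 and then 528 and 418, and ccnb2 at 535 and 771 and then 328 and 323.

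**Figure D4:**
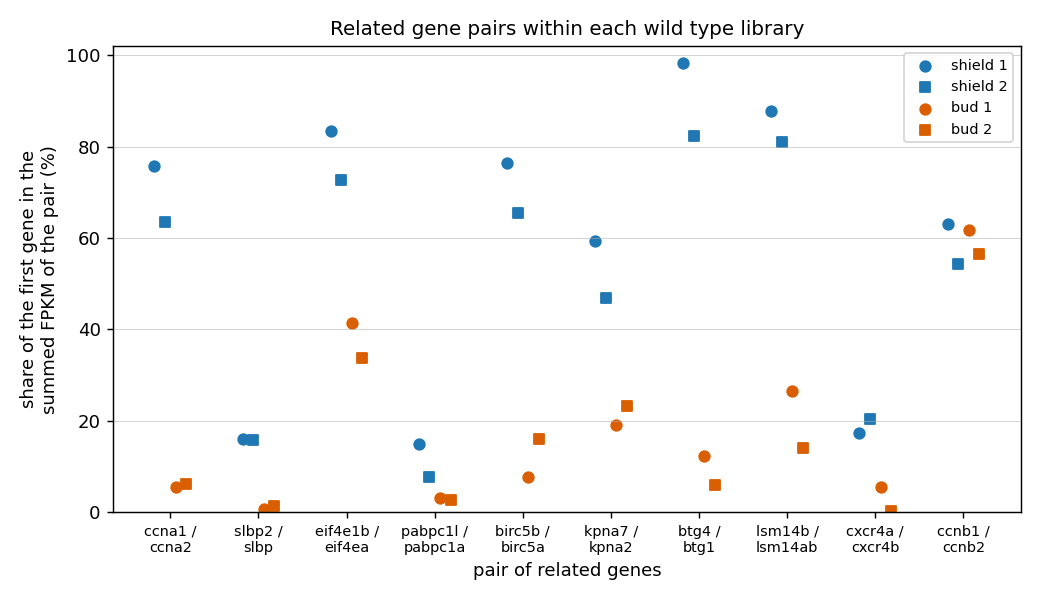
Share of the first gene in the summed FPKM of a pair (y axis, percent) for 10 pairs of related genes (x axis) in each wild type library, with shield in blue, bud in orange, circles for replicate 1 and squares for replicate 2. In 9 pairs both bud shares lie under both shield shares, as in ccna1 with 75.6% and 63.4% against 5.64% and 6.30%, while the shares of ccnb1 overlap.

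The 34 gene lists are described by their counts and medians beside those of all genes. Their members were chosen with earlier results of these data known. A share beside that of all genes is therefore a description and not a test. Shares of separated members are read against the 30.7% of all genes separated as higher and the 10.5% separated as lower. After quantile normalization the shares of all genes were 23.2% and 21.4%. Members that reached the filter only through 1 stage are counted in these shares although their side was fixed, and not all of them are named. No member of any list passed the test over all genes. Most members given as examples are among the 4 with the smallest unadjusted p of their list. That ranking took only members with a mean FPKM of at least 5 at 1 stage or more. Which of these are shown was not set by a rule, and others, such as gsc, were added after their values were seen. Of 33 tested oocyte and egg factors, 20 had both bud libraries below both shield libraries (60.6%, against 10.5% of all genes) and 1 above (3.03%, against 30.7%). The median log2 difference relative to all genes was −1.29. Beside cldnd and lsm14b, btg4 stood at 48.3 and 41.4 FPKM at shield and at 2.27 and 1.23 at bud. slbp2 stood at 39.8 and 71.3 and then at 2.29 and 5.01. The relative median lay between −1.89 and −0.65 in all alternatives, the latter without shield replicate 1. Of 26 pluripotency and genome activation factors, 7 were separated as lower (26.9%) and 4 as higher (15.4%), with a relative median of −0.90. nanog, which helps switch on the zygotic genome, stood at 89.4 and 427 at shield and at 22.9 and 38.6 at bud. Its partner pou5f3 stood at 59.3 and 383 and then at 19.7 and 22.4. klf17 stood at 3.38 and 10.4 and was listed at 0 in both bud libraries, so that it reached the filter only through shield.

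Of 54 genes of the mitotic cell cycle, 15 were separated as higher (27.8%, against 30.7% of all genes) and 17 as lower (31.5%, against 10.5%). The relative median was −0.39. After quantile normalization the counts were 11 and 24, where all genes had 23.2% and 21.4%. cdc6, which loads the replicative helicase at origins, stood at 74.7 and 185 FPKM at shield and at 21.0 and 17.6 at bud. birc5b stood at 196 and 71.5 and then at 15.2 and 22.5. Both had bud values below every shield value, while bub3, given above, lay on the other side. Among 24 tested histone and HMGB genes, 7 lay higher (29.2%) and 4 lower (16.7%) without overlap, the first share near the 30.7% of all genes. The relative median of −0.40 turned to 0.39 without shield replicate 1. h2ax, the histone variant that marks broken DNA when phosphorylated, stood at 83.9 and 33.1 and then at 19.1 and 12.6, and hmgb2b, a chromatin protein, at 604 and 851 and then at 1630 and 1278. h1-10, among the 7 higher, stood at 0 and 0.41 and then at 9.12 and 4.70. It reached the filter only through bud, which fixed its side.

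Most genes that build ribosomes had log2 differences above the median difference of all genes. Of 61 tested ribosome biogenesis genes, 39 had both bud libraries above both shield libraries (63.9%, against 30.7% of all genes) and 1 below. The relative median was 0.82 and stayed between 0.65 and 1.03 in all alternatives. pes, of the complex that processes large subunit RNA, stood at 22.0 and 35.5 FPKM at shield and at 128 and 125 at bud. nop2, a nucleolar RNA methyltransferase, stood at 6.80 and 49.6 and then at 136 and 161. The helicase gene ddx21 stood at 37.6 and 74.3 and then at 178 and 203. In these 3 genes every bud value was above every shield value. Of 74 translation factors, 43 were separated as higher (58.1%) and 6 as lower, with a relative median of 0.36 that stayed between 0.19 and 0.62. The initiation factor gene eif3g stood at 46.1 and 89.7 and then at 275 and 250.1, and eif3d at 55.7 and 136 and then at 350.3 and 312.

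Cytoplasmic ribosomal proteins showed as high a share, with 58 of 83 separated as higher (69.9%) and 1 as lower, but their relative level depended on the library. The relative median was 0.47 with all 4 libraries, 1.50 without shield replicate 1 and −0.74 without shield replicate 2. The median log2(FPKM + 1) of the list was 8.04 and 7.30 in the shield libraries and 8.74 and 8.45 in the bud libraries. rpl13a stood at 119 and 124 FPKM at shield and at 427 and 330 at bud, and rplp2 at 45.5 and 33.4 and then at 137 and 150.4. Nuclear genes of oxidative phosphorylation had 45 of 84 members separated as higher (53.6%) and 3 as lower. Their relative median of 0.20 was 1.09 without shield replicate 1 and −0.80 without shield replicate 2, and also −0.24 without bud replicate 1. After quantile normalization 25 of the 84 were separated as higher, against 23.2% of all genes, and 7 as lower. ndufa6 of complex I stood at 8.39 and 5.92 at shield and at 84.9 and 44.0 at bud.

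The protein genes of the mitochondrial genome lay on the other side. The log2 differences of all 13 were below the median difference of all genes, with a relative median of −1.41. Of the 13, 3 were separated as lower (23.1%). mt-atp6, of the ATP synthase, stood at 5215 and 1504 FPKM at shield and at 1461 and 781 at bud. The relative median was 0.22 without shield replicate 1, whose mitochondrial share is given above. Of 21 glycolysis genes, 5 were separated as lower (23.8%) and 2 as higher (9.52%), with a relative median of −0.41 that kept its sign in all alternatives. Among the 5, aldocb stood at 5.94 and 8.40 and then at 0 and 0.45. It reached the filter only through shield, which fixed its side. gapdh stood at 326 and 220.2 and then at 103 and 86.3, and the lactate dehydrogenase gene ldhba at 136 and 147 and then at 48.6 and 64.1.

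Lists of embryonic signals differed in direction. Nodal targets had 7 of 13 tested members separated as lower (53.9%, against 10.5% of all genes) and 1 as higher, with a relative median of −1.45 that stayed between −2.13 and −0.98. dkk1b, a Wnt antagonist of the organizer, stood at 44.3 and 21.7 FPKM at shield and at 9.55 and 5.13 at bud. noto, also in the Nodal list, reached the filter only through shield, which fixed its side. Wnt targets had 9 of 17 members separated as higher (52.9%, against 30.7%) and 2 as lower, with a relative median of 0.74 that was lowest, at 0.19, without shield replicate 1. cdx4, a homeobox gene of the posterior body, stood at 51.2 and 75.1 and then at 188 and 338. sp5l, a zinc finger target of Wnt, was listed at 0 and stood at 28.6 at shield, and reached 191 and 60.1 at bud. dkk1b, given above, is also in the Wnt list and lay lower at bud. cdx1a, among the 9 higher Wnt targets, stood at 0 and 0.65 and then at 10.3 and 7.90. It reached the filter only through bud, which fixed its side. BMP targets had 8 of 22 separated as higher (36.4%, against 30.7% of all genes) and 7 as lower (31.8%, against 10.5%). Their relative median of −0.41 was 0.53 without shield replicate 2. eve1, a ventral homeobox gene, stood at 184 and 212 and then at 50.4 and 27.9, so that eve1, id1 and vox lay on 1 side and cdx4 on the other. tp63, among the 8 higher BMP targets, stood at 0 and 0.88 and then at 39.6 and 2.99. It too reached the filter only through bud. FGF targets had 4 of 15 separated as higher (26.7%) and 1 as lower (6.67%), near the shares of all genes. The counts became 3 and 5 after quantile normalization, and the sign of their relative median (−0.11) changed in several alternatives. The FGF target etv4 stood at 55.6 and 143 and then at 212 and 186.

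Hox and retinoic acid genes were mostly at low values, and 15 of 64 were tested. Of these, 9 lay higher (60%, against 30.7% of all genes) and 1 lower (6.67%, against 10.5%) without overlap. The relative median of 0.85 was −0.22 where FPKM of at least 1 was required in all 4 libraries, a filter that leaves out genes low or at 0 at shield. dhrs3b, a retinaldehyde reductase gene, was listed at 0 and stood at 1.29 FPKM at shield, and reached 37.9 and 22.8 at bud. hoxc8a was listed at 0 and stood at 0.59, then at 11.01 and 9.04. The TALE homeobox gene meis3 was listed at 0 and stood at 0.38, then at 16.02 and 14.95. The retinoic acid hydroxylase gene cyp26a1, by contrast, stood at 31.9 and 140.1 and then at 38.0 and 5.61, with overlapping libraries. hoxc8a and meis3 reached the filter only through bud, which fixed their side. How many of the 9 higher members did so was not counted. The median log2(FPKM + 1) of the tested members was 0 in shield replicate 1.

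The lists of somatic layers share genes with the marker lists above. All 6 tested axial mesoderm genes, of 11 in the table, were separated as lower (against 10.5% of all genes), with a relative median of −3.17. Among them noto and gsc reached the filter only through shield, which fixed their sides. gsc stood at 4.48 and 5.11 FPKM at shield and at 0 and 0.15 at bud. chrd, the BMP antagonist of the organizer, stood at 30.3 and 38.0 FPKM at shield and at 4.83 and 3.14 at bud, and foxa at 24.5 and 22.7 and then at 7.80 and 1.79. Of 5 tested endoderm genes, 3 were separated as lower (60%, against 10.5% of all genes), with a relative median of −1.92. foxa3 was among these 3 and also reached the filter only through shield. cxcr4a stood at 59.2 and 169 and then at 18.2 and 1.63. Other layers had members on both sides. In the neural list irx7 stood at 78.4 and 59.8 and then at 15.4 and 5.40, while pax2a was listed at 0 in both shield libraries and stood at 4.09 and 12.05 at bud. pax2a thus reached the filter only through bud. In the segmentation clock her7 stood at 24.4 and 88.1 and then at 2.89 and 11.3, while her12 was listed at 0 and stood at 1.23 at shield and reached 15.97 and 12.11. Of 12 tested epidermis genes, 5 were separated as higher (41.7%, against 30.7% of all genes) and 2 as lower (16.7%, against 10.5%). Among the 5, dlx3b was listed at 0 and stood at 1.57 at shield and at 52.0 and 16.5 at bud. tp63 was also higher but reached the filter only through bud. The lowest log2 difference of the epidermis list was −3.26. Relative medians of the neural (−0.61), paraxial (0.46), ventral (−0.41), epidermis (−0.46) and enveloping layer lists (−0.80) each changed sign when a library was left out. Of the yolk syncytial list 5 of 16 genes were tested, led by apolipoprotein genes. All 5 were separated as higher (against 30.7% of all genes), but 1 of 5 after quantile normalization (against 23.2%). The relative median was 1.17, and −0.01 without bud replicate 1. The markers of that layer, mxtx1, mxtx2, hnf4a and slc26a1, did not reach the filter.

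The median log2 differences of germ cell lists lay near or below that of all genes. Of 13 germ plasm and germ cell mRNAs, 2 were separated as lower (15.4%, against 10.5% of all genes) and 0 as higher (against 30.7%). The relative median was −0.55. It was −0.07 after quantile normalization and −0.93 without shield replicate 1. hook2 stood at 11.53 and 75.4 FPKM at shield and at 0.48 and 6.17 at bud. buc, the Bucky ball gene that organizes germ plasm, stood at 11.6 and 105 and then at 12.8 and 5.12, with overlapping libraries. h1m, the linker histone of germ cells and eggs, stood at 1291 and 869.7 and then at 852 and 609.7. In the Piwi and Tudor list 3 of 13 members lay higher (23.1%) and 1 lower (7.69%) without overlap. The relative median of 0.04 was −0.51 without shield replicate 1. henmt1, which methylates the ends of piRNAs, was listed at 0 and stood at 6.27 at shield and at 16.2 and 14.2 at bud. Of 45 genes of chemokine guidance and motility, 14 were separated as higher (31.1%) and 4 as lower (8.89%), close to the shares of all genes. actb1, cytoplasmic actin, stood at 72.2 and 103 and then at 323 and 265, while pfn1, a profilin that binds actin, stood at 116 and 134 and then at 40.8 and 21.9.

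Lists of stress, chaperones, membranes and gene control remain. p53 and apoptosis genes had 11 of 24 members separated as higher (45.8%, against 30.7% of all genes) and 2 as lower (8.33%, against 10.5%). Their relative median of 0.89 was 0.24 without bud replicate 2. The Bax gene baxb stood at 0 and 0.33 FPKM at shield and at 5.78 and 5.16 at bud, and sesn1, of the stress-induced sestrins, at 0.32 and 34.4 and then at 45.9 and 154. baxb reached the filter only through bud. In the same list gadd45ba went the other way, at 9.86 and 13.4 and then at 1.15 and 0.80. Dissociation stress genes had 5 of 20 separated as higher (25%) and 6 as lower (30%), with a relative median of −0.31. ier2a stood at 82.7 and 83.4 and then at 24.1 and 33.9, and fosab at 0 and 1.80 and then at 5.96 and 31.4. Cytosolic chaperones had 15 of 35 separated as higher (42.9%) and 5 as lower (14.3%), with a relative median of 0.17 that was −0.10 without shield replicate 2. Among them the chaperonin gene cct4 stood at 147 and 133 and then at 469.7 and 413. Genes of the endoplasmic reticulum had 11 of 51 separated as higher (21.6%) and 3 as lower (5.88%), with a relative median of −0.26. The counts became 10 and 13 after quantile normalization. Among them atf4a, a transcription factor of the stress response, stood at 12.6 and 49.0 and then at 145 and 169. GPI anchor genes had 7 of 26 separated as higher (26.9%) and 3 as lower (11.5%), near the shares of all genes. The counts became 5 and 6 after quantile normalization. Their relative median of −0.19 was 0.38 without shield replicate 1 and −0.99 without shield replicate 2. In that list pigf stood at 7.55 and 15.5 and then at 63.5 and 50.7. Sterol synthesis genes had 6 of 25 separated as higher (24%) and 2 as lower (8%), and 5 and 7 after quantile normalization (relative median 0.19, but −0.05 without bud replicate 2). Among the 6, msmo1 was listed at 0 in both shield libraries and reached the filter only through bud. For DNA methylation and Polycomb genes the counts were 4 (15.4%) and 2 (7.69%) of 26, and 2 and 7 after quantile normalization (0.27, but −0.20 without shield replicate 1). mRNA decay genes had 9 (20.9%) and 3 (6.98%) of 43, and 10 and 8 after quantile normalization (0.14, but −0.37 without shield replicate 1). In the decay list cnot11 stood at 24.0 and 23.3 and then at 78.0 and 64.6, and cnot8 at 71.9 and 130 and then at 24.3 and 44.6. Of the 34 lists, 14 kept the sign of the relative median in every alternative computed.

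**Figure D5:**
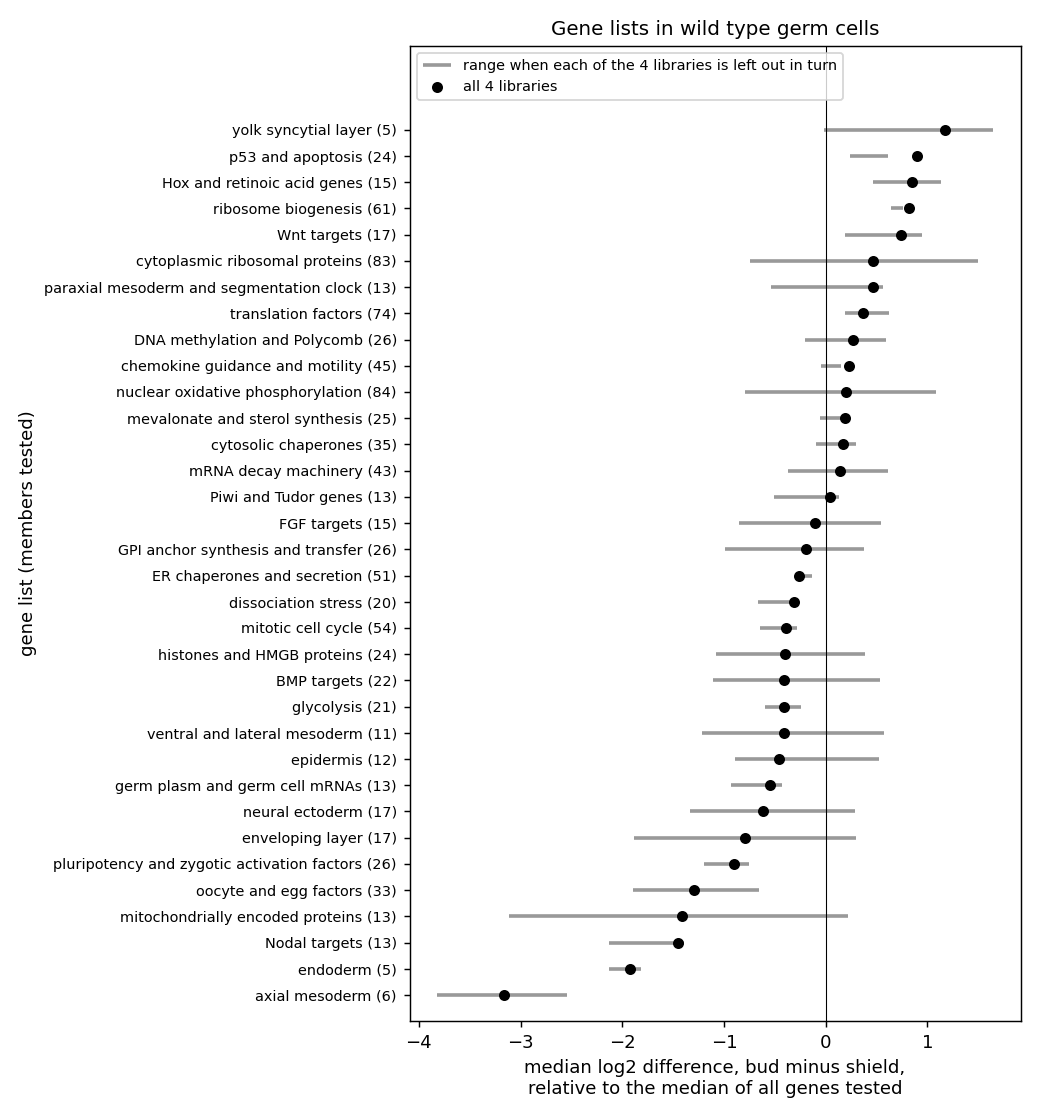
Median log2 difference (bud minus shield) of each of the 34 gene lists relative to the median of all genes tested (x axis), with the number of members tested beside each list name (y axis). Points use all 4 libraries and grey bars span the values with each library left out in turn, which need not include the point, as in ribosomal proteins from −0.74 to 1.50.

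Whether the stage difference itself differed from that of pigu mutant PGCs was tested over all 8 libraries. limma called 0 of 13984 genes (0%), and 199 had an unadjusted p under 0.05 (1.42%), fewer than the 699.2 expected by chance. The lack of calls does not show that the stage difference is the same in both genotypes. The smallest adjusted p was 1.00. ccna1 stood at 188 and 371 FPKM in mutant shield and was listed at 0 and stood at 5.09 in mutant bud, with an interaction of 2.13 on the log2 scale (SE 1.48). Among the 24 genes of the plot by library, noto and tbxta had stage differences of opposite sign in the genotypes. In the mutant tbxta stood at 2.04 and 199 at shield and 31.0 and 131 at bud (interaction −4.86, SE 2.14, limma adjusted p = 1.00). noto was listed at 0 and stood at 6.22 in mutant shield, and was listed at 0 and stood at 109 in mutant bud.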

How the data were processed

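The authors deposited FPKM per gene and library, with no counts. Per the submitters' processing notes, reads were handled with Cufflinks 2.2.1, STAR 2.5.3a and Trim Galore on danRer11, and the annotation is not given in the sources used here. The table has 31934 entries, and 2 that lack a value were dropped. For 545 symbols with several entries the one with the highest mean was kept. The 4 wild type libraries were fitted with limma 3.58.1 (R 4.3.3, trend) on log2(FPKM + 1) without scaling, with 2 residual degrees of freedom (median 8.06 after moderation), two-sided, called at an adjusted p under 0.05. A fold on this scale understates changes of low genes. The steps of the fit were run on simulated data with known changes. There all 4 libraries had equal spread, unlike the real ones, so that run does not show how the fit behaves on these data. Members, lists and rules were chosen with earlier results of these data known, and a gene named outside the stated rules was chosen after its values were seen. "Separated" means that both bud libraries lay above, or below, both shield libraries. Relative medians subtract the median of all genes. Alternatives changed the pseudocount, filter, scaling, moderation, weights, threshold, block, merging and libraries, and counts of separated genes under them were added after seeing the data. Plots used Python 3.11.15 and matplotlib 3.10.9. Depth is unknown.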

Additional observations from a re-analysis of the deposited data

How the results depend on the processing

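The 0 calls became 3 with a pseudocount of 5 (ccna1, cldnd and the unnamed locus BX640547.4), 1 where all 4 libraries had to reach FPKM 1 (ccna1), 10 after quantile normalization and 2 with library weights (ccna1 and BX640547.4), all lower at bud. Leaving out a library gave 5 to 3352 calls. There were 67 without shield replicate 1 (37 higher) and 3352 without shield replicate 2 (3087 higher), where the lone shield library is assumed to vary like the others, and 5 without bud replicate 1 (BX640547.4, CR925768.6, emc4, ccna1, CR759907.2) or bud replicate 2 (CR388172.13, BX640547.4, ccna1, CR759907.2, tdgf1). Genes separated as higher were 2151 of the 7201 tested where all 4 libraries had to reach FPKM 1, and 4067 to 7885 with a library left out. Those separated as lower were 2067 after median-of-ratios scaling, 2677 after quantile normalization and 1836 to 4474 with a library left out. Counts from 3 libraries are not comparable with those from 4, since fewer libraries overlap less often. A replicate block gave 612 calls (477 higher, 135 lower) and 1 call for the interaction (mt-atp8), but the labels do not pair the numbers, and the correlation of replicate deviations between the 2 stages was 0.26.

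Of 157 genes followed, 10 changed sign in some alternative. The log2 difference of ddx4 was −0.29 after median-of-ratios scaling, −0.064 after quantile normalization and −0.13 with nuclear scaling, tdrd7a was −0.056 and gra −0.25 with the first, gra −0.092 with the last, and slbp −0.15 and −0.028 with the first and second. nanos3 was 0.48 and dnd1 0.24 after quantile normalization. With a library left out ddx4 ran from −0.59 to 0.89, tdrd7a from −1.01 to 1.78, dazl from −0.68 to 1.77, gra from −0.44 to 0.82, tdrd9 from −0.089 to 3.12, slbp from −0.15 to 0.73, nanos3 from −0.83 to 0.80, dnd1 from −1.08 to 0.54, ca15b from −1.41 to 1.18 and cxcr4b from −0.67 to 0.54. The cause was not tested. What depth limits cannot be given, since the depth is unknown.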

Other observations

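Further gene families, chosen after their values were seen, are described without a test. Proteasome subunits had 34 of 40 tested members separated as higher at bud (85%, against 30.7% of all genes) and 0 as lower. Among the 34, psmb12 was listed at 0 in both shield libraries and stood at 11.04 and 9.56 at bud. It reached the filter only through bud, which fixed its side. psma4, of the core ring, stood at 82.3 and 80.03 FPKM at shield and at 285 and 224 at bud, and psmd4b, a ubiquitin receptor of the cap, at 12.07 and 14.3 and then at 82.0 and 52.7. The relative median of 0.67 was 1.29 without shield replicate 1 and −0.03 without shield replicate 2. Mitochondrial ribosomal proteins had 51 of 74 separated as higher (68.9%) and 2 as lower, with mrpl24 at 12.8 and 12.08 and then at 57.5 and 59.4. Their relative median of 0.32 was −0.61 without shield replicate 2. After quantile normalization 25 of the 40 and 30 of the 74 were separated as higher, against 23.2% of all genes.

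Replication licensing genes had members on both sides. Of 24 MCM and origin genes, 6 were separated as lower (25%, against 10.5% of all genes) and 4 as higher (16.7%, against 30.7%). The relative median of −0.56 kept its sign in all alternatives. gins2, of the replicative helicase, stood at 109 and 84.6 FPKM at shield and at 27.6 and 27.0 at bud, while mcm7, a core subunit of it, stood at 97.2 and 214 and then at 307 and 306. Claudins had 5 of 11 tested members separated as lower (45.45%) and 1 as higher (9.09%), with a relative median of −0.64. Beside cldnd and cldng, cldn18 stood at 5.63 and 2.06 at shield and at 0 and 0.13 at bud, and cldn5a at 0 and 0.14 and then at 4.13 and 3.02. cldn18 reached the filter only through shield and cldn5a only through bud, which fixed their sides. RGS genes, which code for regulators of G protein signalling, had 1 of 8 separated as lower (12.5%, near the 10.5% of all genes) and 0 as higher (−0.87). The 1 gene was rgs20, at 9.27 and 3.55 and then at 3.25 and 1.45. After quantile normalization 4 of the 8 RGS genes were separated as lower, against 21.4% of all genes, and 0 as higher. The log2 differences of all 8 lay below the median difference of all genes. rgs14a stood at 24.2 and 243 and then at 18.9 and 25.8, with overlapping libraries.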
